A study of Mus musculus with 106 samples.

Results

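Malat1, Neat1, Meg3, Rian, Mirg, Miat, Snhg11 and Peg13 are 8 mouse genes whose main products are long noncoding RNAs, and they were followed here through RiboTag immunoprecipitates (IPs) and matched total RNA of brain. They were taken by name from the 55401 mouse genes of the count table, where all 8 were present and all 8 passed the filter on low counts in every comparison. The series compared Huntington's disease (HD) knock-in mice with controls, and the question asked of these genes was how much of each RNA came down with tagged ribosomes, relative to total RNA, in each cell type and region, and whether HD changed it. HD mice were Hdh Q7/Q200, with an expanded CAG repeat in 1 copy of the endogenous huntingtin gene, and controls were Hdh Q7/Q7. All mice had the 129S4 background and were 9 months old, and all carried 1 Cre driver (Gad2, PV, SST or vGluT2) with the RiboTag allele, in which Cre recombination adds an HA tag to the ribosomal protein Rpl22. IPs therefore hold RNA bound to tagged ribosomes of every cell in which the driver was ever active, and the SST line is not described by the study's methods.

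The IPs form 6 sets, and their numbers of control and HD libraries were 6 and 6 for cerebral Gad2+ neurons, 6 and 5 for PV+, 5 and 4 for SST+, 6 and 6 for cerebral vGluT2+, 6 and 6 for cerebellar Gad2+, and 5 and 6 for cerebellar vGluT2+ neurons. Total RNA of the same line and region was available from 3 control and 3 HD mice, except for 4 and 3 of the SST line and 4 and 4 of the cerebellar vGluT2 line. Both preparations came from the supernatant of a 10000 x g spin that pellets nuclei, so neither holds the nuclear RNA of the tissue in full, and PV IPs were pooled from a pair of aliquots. The 106 libraries held 21905221 to 107753586 counts each (median 35866725), of which the 8 genes took between 0.0614% and 0.253%. Levels are given as CPM, a gene's counts relative to its library total after scaling by the trimmed mean of M-values (TMM), and p-values measure the spread between these mice.

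Long noncoding RNAs are transcribed and often spliced like mRNAs but have no long conserved reading frame, and many stay in the nucleus. Malat1 lies in nuclear speckles and Neat1 is the scaffold of paraspeckles, nuclear bodies that hold RNA-binding proteins. Meg3, Rian and Mirg are expressed from the maternal chromosome of the imprinted Dlk1-Dio3 region and host microRNAs or small nucleolar RNAs. Miat is enriched in neurons, Snhg11 is a host of small nucleolar RNAs, and Peg13 is a paternally expressed, unspliced RNA made within the Trappc9 gene. A ribosome IP takes up RNA that is being translated or scanned, and also any RNA that sticks to ribosomes or beads, so the IP to total RNA ratio is a measure of co-purification and not of translation.

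Libraries were made from polyadenylated RNA, so the ends of the transcripts bear on what could be captured. The mature end of Malat1 is not made by polyadenylation but lies at an A-rich tract that the RNA folds into a triple helix, and the long form of Neat1 ends in the same way. The 60 bases of Malat1-201 around that tract (bases 6640 to 6699 of 6983, chr19:5795974-5796033, minus strand, GRCm38) and the last 60 bases of Neat1-201 (20771 bases) are shown with the 16 bases they share in capitals.
Malat1-201: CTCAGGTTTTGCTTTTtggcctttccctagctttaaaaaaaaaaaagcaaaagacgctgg
Neat1-201: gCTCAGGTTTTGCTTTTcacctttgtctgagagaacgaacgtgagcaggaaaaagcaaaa
In Malat1 the shared uridine-rich run is followed by 12 consecutive A, and the annotated transcript goes on for another 298 bases. Transcript ends were searched for the polyadenylation signal AATAAA on the transcript strand in the last 60 bases. It was found in 28.5% of all 134520 annotated transcripts over 200 bases and in 31.5% of lincRNA transcripts. Among these genes it was in 1 of 1 transcript of Peg13, 3 of 4 of Malat1, 7 of 12 of Mirg, 4 of 11 of Meg3, 1 of 4 of Neat1, 2 of 5 of Snhg11, 3 of 20 of Rian and 0 of 6 of Miat. Variants of AATAAA were not searched, so a transcript without it may still have a polyadenylation signal. Miat-205 and Miat-201, for example, hold ATTAAA in their last 60 bases. Peg13 had the highest mean CPM of these genes in each preparation, taken over both genotypes. The place of the signal, in capitals, is shown for the short form of Neat1 (Neat1-202), for Meg3 and for Peg13.
Neat1-202: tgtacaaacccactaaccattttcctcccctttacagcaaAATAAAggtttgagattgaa
Meg3-209: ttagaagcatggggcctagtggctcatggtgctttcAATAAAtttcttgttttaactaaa
Peg13-201: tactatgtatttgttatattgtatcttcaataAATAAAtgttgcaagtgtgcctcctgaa
The signal ended 14, 18 and 22 bases before the ends of these 3 transcripts.

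Meg3, Rian and Mirg also span microRNAs, which poly(A) libraries do not measure. RefSeq places 3 mature microRNAs in exons of Meg3, 6 in introns of Rian and 26 in Mirg, of which 8 are exonic and 18 intronic. Mature sequences of a few are shown with the seed, bases 2 to 8, in capitals (plus strand, GRCm38.p6), because they are products of transcripts whose own level is reported here.
miR-770-5p (Meg3 exon, chr12:109563710-109563731): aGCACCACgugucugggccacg
miR-370-3p (Rian intron, chr12:109618305-109618326): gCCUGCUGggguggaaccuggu
miR-134-5p (Mirg exon, chr12:109734145-109734166): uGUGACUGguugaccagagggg
miR-410-3p (Mirg exon, chr12:109743764-109743784): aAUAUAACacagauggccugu
miR-453 (Mirg intron, chr12:109735669-109735692): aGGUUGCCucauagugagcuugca
miR-496a-5p (Mirg intron, chr12:109739132-109739152): aGGUUGCCcaugguguguuca
Only miR-453 and miR-496a-5p shared a seed among the mature microRNAs of Mirg.

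The marker genes of each labelled cell type were in place. Summed CPM of GABAergic markers was 2881.2 to 4129.8 in cerebral Gad2+ IPs against 953.2 to 1136.1 in total RNA of that line. PV markers were at 1641.0 to 2078.0 in PV+ IPs against 292.1 to 385.6 in total RNA, and SST markers at 1020.8 to 2956.3 in SST+ IPs against 150.2 to 332.9. Other neuronal sums in SST+ IPs overlapped with total RNA of that line. Pan-neuronal mRNAs were at 12832.8 to 17548.1 against 14856.9 to 18307.4 CPM, and cerebral vGluT2 markers at 113.0 to 244.0 against 115.3 to 203.7. In cerebral vGluT2+ IPs the sum of vGluT2 markers was 184.9 to 376.9 against 131.4 to 181.9 in total RNA, and GABAergic markers were at 77.8 to 184.2 against 971.2 to 1255.0. Astrocyte markers (10 genes) summed to 330.7 to 1177.1 CPM in cerebral Gad2+ IPs and 439.2 to 1015.3 in cerebral vGluT2+ IPs, but to 988.4 to 2059.1 in PV+ and 1674.9 to 3000.2 in SST+ IPs. Cerebral total RNA held 3692.2 to 5271.8.

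Per kilobase of annotated exon, the mean level of Peg13 stood above those of the others in every preparation. The spreads were not always apart. In control total RNA of the cerebellar vGluT2 line Malat1 was at 81.0 ± 70.1 CPM per kb (SD, n = 4) and Peg13 at 112.0 ± 7.02. Peg13 is a single exon of 4725 bases (chr15:72805600-72810324, minus strand, GRCm38) within an intron of Trappc9. Its mean level was 136.0 ± 16.2 CPM per kb in cerebral Gad2+ IPs (SD, n = 12) and 98.0 ± 7.9 in total RNA (n = 6). Rian followed in the same IPs with 9.45 ± 1.92 CPM per kb, then Snhg11 with 3.44 ± 0.987 and Meg3 with 3.13 ± 1.4. Malat1, with 0.814 ± 0.577, Miat, with 0.882 ± 0.216, and Neat1, with 0.44 ± 0.173, were lower, and Mirg was lowest with 0.096 ± 0.0411. In total RNA of that line the order differed, and Malat1 (17.6 ± 11.2 CPM per kb), Rian (17.2 ± 2.69) and Meg3 (15.6 ± 6.58) were not apart beyond their spread.

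**Figure D1:**
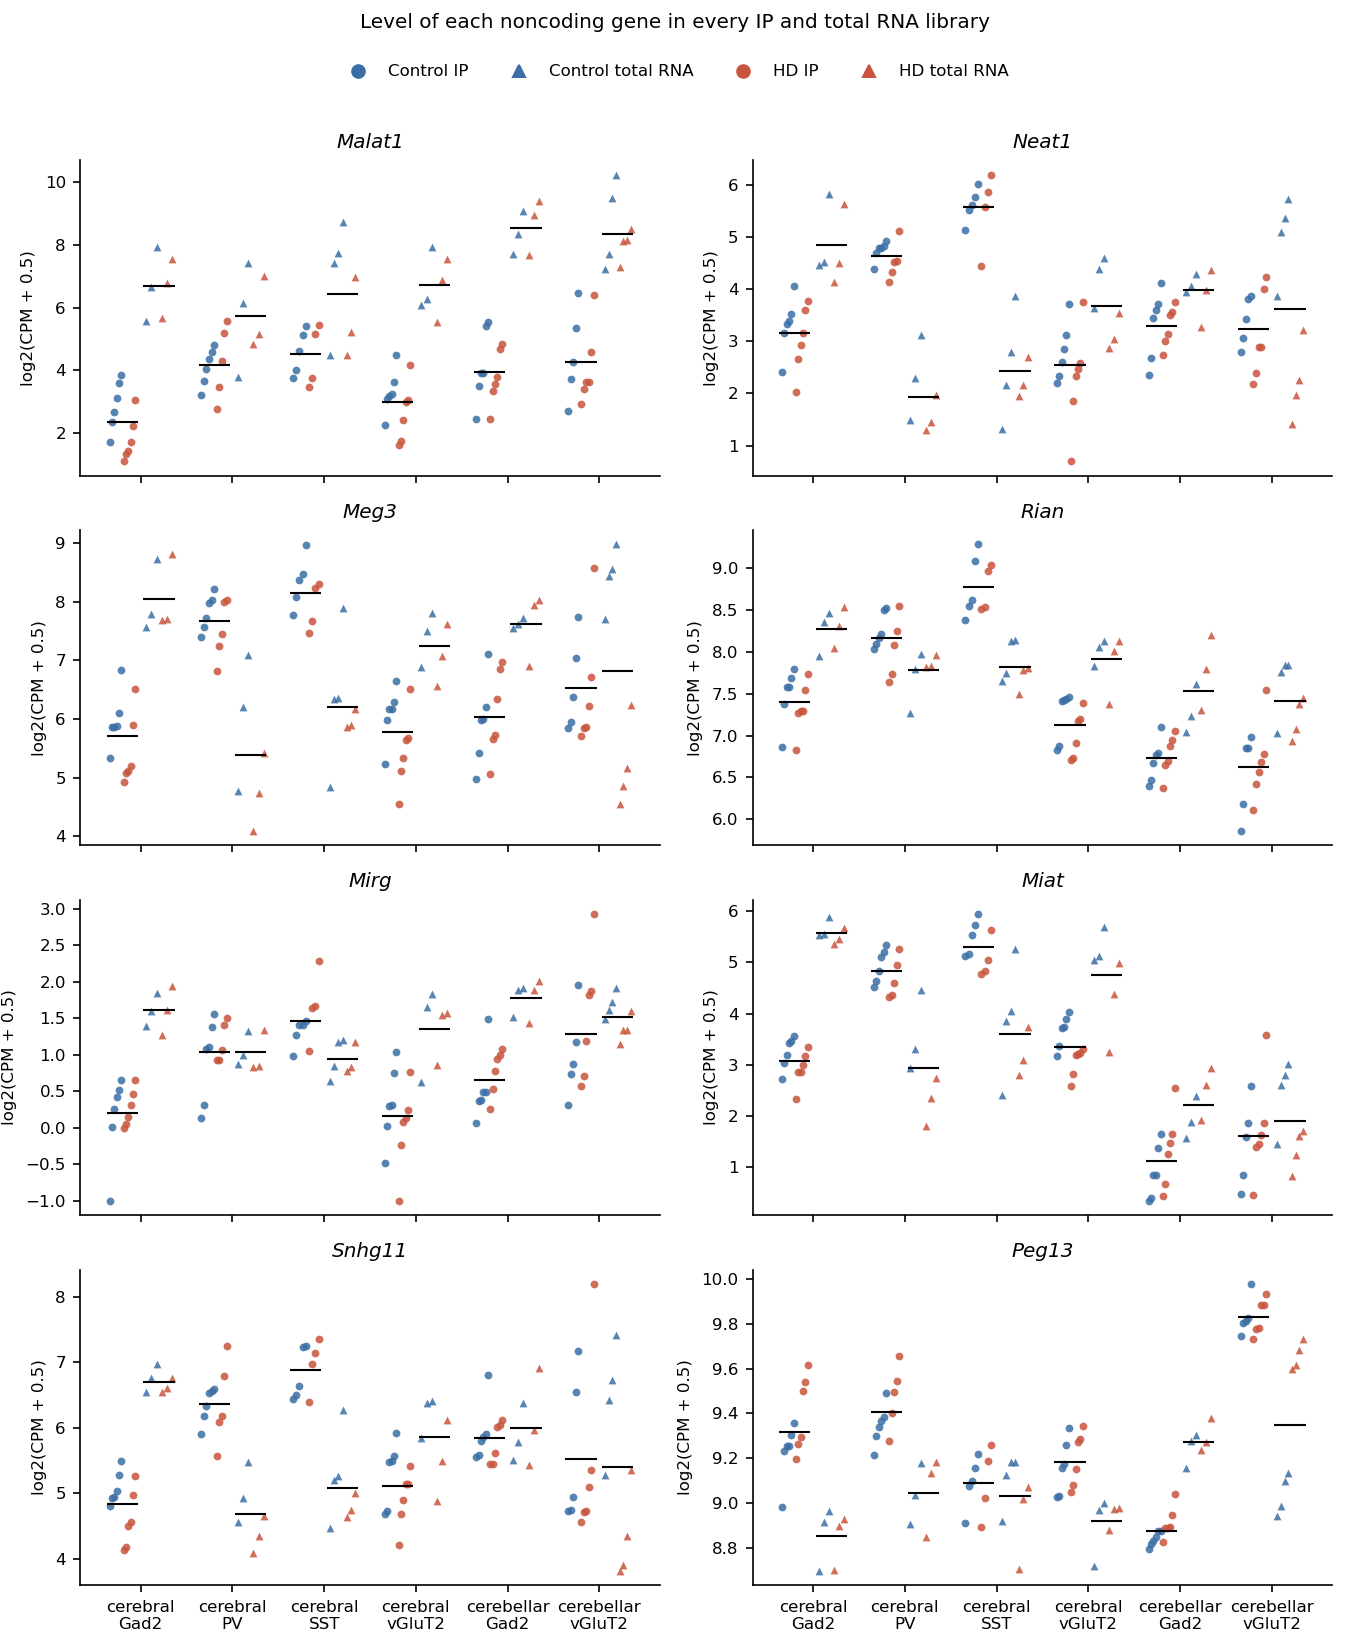
Level of each gene in all 106 libraries, as log2(CPM + 0.5) on the vertical axis, by cell type and region; circles are IPs, triangles total RNA, blue controls, red HD mice, and black bars the mean of both genotypes. Malat1 circles lie below its triangles in the Gad2 and vGluT2 sets, Neat1 circles lie above its triangles in the PV and SST sets, and Peg13 varies least.

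Of the 8 genes, Malat1 had the lowest ratio of IP to total RNA in all 6 sets. Malat1 (chr19:5795690-5802672, minus strand, GRCm38) is an abundant nuclear RNA of 6983 exon bases. In cerebral Gad2+ neurons its lowest, median and highest IP levels were 2.84, 7.08 and 14.1 CPM in controls and 1.66, 2.53 and 7.87 in HD mice, whereas total RNA held 47.0, 100.3 and 244.2 CPM in controls and 50.6, 109.1 and 186.5 in HD mice. No IP reached the lowest total RNA value. The log2 ratio of IP to total RNA, fitted over both genotypes with edgeR (quasi-likelihood, p adjusted over all genes tested), was -4.60 ± 0.42 (SE, adjusted p = 5.21e-08), lower than that of all but 0.211% of genes. Malat1 was lower in the IP than in total RNA in 6 of 6 mice that gave both.

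Malat1 was also lower in the IPs of the other Gad2 and vGluT2 sets. In cerebral vGluT2+ neurons Malat1 ranged over 4.33, 8.81 and 21.9 CPM (lowest, median, highest) in control IPs and 2.59, 6.18 and 17.6 in HD IPs, against 67.5, 76.6 and 240.5 in control and 45.9, 116.3 and 186.4 in HD total RNA. Its log2 ratio was -3.92 ± 0.41 (adjusted p = 2.54e-07), and the groups did not overlap. In cerebellar Gad2+ neurons IPs ranged from 4.94 to 46.5 CPM and total RNA from 203.2 to 665.1, a log2 ratio of -4.50 ± 0.43 (adjusted p = 3.11e-08). In cerebellar vGluT2+ neurons IPs ranged from 6.05 to 88.1 CPM and total RNA from 149.8 to 1196.4, with a ratio of -3.81 ± 0.55 (adjusted p = 4.33e-06). Again no cerebellar IP reached the lowest total RNA library of its line, although Malat1 varied between total RNA libraries of 1 group by up to several fold.

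Malat1 was also lower in the IPs of PV+ and SST+ neurons, but by less than in cerebral Gad2+ neurons. PV+ IPs held 8.74, 18.0 and 27.3 CPM (lowest, median, highest) in controls and 6.32, 10.5, 19.1, 36.1 and 46.8 in HD mice, against 13.4, 70.2 and 170.1 in control and 28.1, 35.6 and 126.9 in HD total RNA. Here the groups overlapped, and the ratio was -1.79 ± 0.47 (adjusted p = 0.00261), lower in the IP in 6 of 6 mice. In SST+ neurons the ratio was -2.20 ± 0.54 (adjusted p = 0.00196), lower in 5 of 6 mice. Malat1 was called lower in the IP in all 6 sets and under each of the 19 to 22 alternatives run per set.

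Neat1 differed between cell types in the direction of its ratio. Neat1 (chr19:5824708-5845478, minus strand, GRCm38; 20771 exon bases) was lower in IPs of cerebral Gad2+ neurons, with 4.83, 9.82 and 16.2 CPM (lowest, median, highest) in controls and 3.6, 7.73 and 13.1 in HD mice, than in total RNA, with 21.5, 22.5 and 56.4 in controls and 17.1, 22.3 and 49.1 in HD mice. These did not overlap, and the log2 ratio was -1.80 ± 0.29 (adjusted p = 5.34e-05). In PV+ neurons the order was the opposite. IPs held 20.3, 27.0 and 29.8 CPM in controls and 17, 19.6, 22.5, 22.9 and 34.2 in HD mice, while total RNA of the PV line held 2.31, 4.41 and 8.18 in controls and 1.97, 2.24 and 3.44 in HD mice. The ratio was 2.82 ± 0.26 (adjusted p = 3.39e-08), again without overlap and in the same direction in 6 of 6 mice.

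In SST+ neurons Neat1 IP levels were 34.7, 45.4, 48.3, 54.0 and 64.2 CPM in controls and 21.3, 47.0, 57.9 and 72.9 in HD mice. Total RNA of the SST line held 1.99, 4.0, 6.42 and 14.1 CPM in controls and 3.35, 3.96 and 6.02 in HD mice. Every IP was above every total RNA library, and the ratio was 3.23 ± 0.35 (adjusted p = 6.03e-07), higher than that of 99.67% of genes. In cerebral vGluT2+ neurons the ratio was -1.17 ± 0.35 (adjusted p = 0.00886). That call was lost with the mouse as a block (-1.51, adjusted p = 0.0514) and without the mouse of control IP replicate 6 (-0.92, adjusted p = 0.0533). In cerebellar Gad2+ neurons Neat1 was lower in IPs by -0.71 ± 0.22 (adjusted p = 0.0107), a call lost in control mice alone (-0.70, adjusted p = 0.109), and against total RNA of both cerebellar lines (-0.66, adjusted p = 0.0875).

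In cerebellar vGluT2+ neurons the Neat1 ratio over both genotypes was -0.48 ± 0.49 (adjusted p = 0.405), but the genotypes stood in opposite order. In controls IPs held 6.42 to 14.1 CPM and total RNA 14.1 to 52.9, and in control mice alone the Neat1 ratio was -1.84 ± 0.33 (adjusted p = 0.000617). In HD mice IPs held 4.03 to 18.3 CPM and total RNA 2.18 to 8.8. The test of this difference between genotypes is given with the HD effect on the ratio.

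The ratios of Neat1 depended on the total RNA they were set against. In cerebral total RNA Neat1 was at 1.97 to 8.18 CPM in the PV line and 1.99 to 14.1 in the SST line, against 17.1 to 56.4 in the Gad2 line and 6.85 to 23.6 in the vGluT2 line. Set against total RNA of the Gad2 and vGluT2 lines, an alternative chosen after seeing the data, Neat1 in PV+ IPs had a log2 ratio of 0.22 ± 0.28 (adjusted p = 0.492), and over all 21 alternatives its value ran from 0.22 to 3.14. For SST+ IPs Neat1 remained higher at 1.24 (adjusted p = 0.00356), the lowest value of its 19 alternatives. In cerebral Gad2+ IPs the lower Neat1 was called against total RNA of the Gad2 and vGluT2 lines (-1.31, adjusted p = 0.000754) but not against that of all 4 lines (-0.60 ± 0.42, adjusted p = 0.212). TMM scaling factors also differed between these total RNA libraries, at 0.857 to 0.995 in the PV line, 0.859 to 1.008 in the SST line, 1.046 to 1.086 in the Gad2 line and 0.978 to 1.068 in the vGluT2 line. Without TMM the Neat1 ratio was 2.97 in PV+ and 3.39 in SST+ neurons, and 6 of the 8 genes were called higher and 1 lower in PV+ and 7 and 1 in SST+ neurons.

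The transcripts of the Dlk1-Dio3 region were lower in the IPs of cerebral Gad2+ and vGluT2+ neurons. Meg3 (chr12:109541001-109571726, plus strand, GRCm38), a maternally expressed RNA with 18089 exon bases, was at 39.8, 58.2 and 114.0 CPM (lowest, median, highest) in control and 29.8, 35.1 and 90.5 in HD IPs of cerebral Gad2+ neurons. Total RNA held 189.7, 221.9 and 420.7 CPM in controls and 204.7, 208.2 and 449.5 in HD mice. All IPs lay below all total RNA libraries, and the log2 ratio of Meg3 was -2.36 ± 0.27 (adjusted p = 8.54e-07). In PV+ neurons Meg3 was at 167.6, 231.0 and 297.4 CPM in control IPs and 112.6, 150.5, 173.7, 253.8 and 260.2 in HD IPs, but at 26.7, 73.6 and 135.8 in control and 16.5, 26.3 and 42.4 in HD total RNA. One control total RNA library reached into the range of the IPs, and the ratio was 2.15 ± 0.34 (adjusted p = 2.43e-05).

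SST+ neurons had a Meg3 ratio of 1.88 ± 0.32 (adjusted p = 6.52e-05), with IPs at 177.0 to 501.6 CPM and total RNA at 28.2 to 236.6. Against total RNA of the Gad2 and vGluT2 lines the PV+ value was 0.02 (adjusted p = 0.954) and the SST+ value 0.51 (adjusted p = 0.0951), so neither Meg3 call held there. Meg3 was lower in IPs of cerebral vGluT2+ neurons (-1.54 ± 0.24, adjusted p = 2.44e-05) and of cerebellar Gad2+ neurons (-1.53 ± 0.28, adjusted p = 8.53e-05). In cerebellar vGluT2+ neurons the Meg3 ratio over both genotypes was -0.21 ± 0.62 (adjusted p = 0.78), and here too the genotypes stood in opposite order. Control IPs held 56.9 to 211.8 CPM of Meg3 against 208.8 to 503.1 in total RNA, a ratio of -1.80 ± 0.37 in control mice alone (adjusted p = 0.00153), while HD IPs held 52.1 to 382.0 CPM against 23.0 to 74.6.

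Rian (chr12:109603940-109661716, plus strand, GRCm38), a host of small nucleolar RNAs and microRNAs with 18234 exon bases, had ratios between -0.90 and 1.06. Its IP and total RNA levels were 172.3 ± 35.1 (n = 12) and 313.0 ± 49.1 CPM (SD, n = 6) in cerebral Gad2+ neurons, with no overlap. In SST+ neurons IPs stood higher, at 446.6 ± 101.7 (n = 9) against 228.4 ± 38.3 CPM (n = 7), again without overlap. Its log2 ratios were -0.85 ± 0.14 in cerebral Gad2+ (adjusted p = 8.04e-05), 0.46 ± 0.15 in PV+ (adjusted p = 0.0102, or 0.319 against total RNA of the Gad2 and vGluT2 lines) and 1.06 ± 0.15 in SST+ neurons (adjusted p = 8.96e-06). They were -0.90 ± 0.13 in cerebral vGluT2+ (adjusted p = 1.79e-05), -0.86 ± 0.14 in cerebellar Gad2+ (adjusted p = 3.40e-05) and -0.79 ± 0.19 in cerebellar vGluT2+ neurons (adjusted p = 0.00112). Rian was thus lower in the IPs of the Gad2 and vGluT2 lines in both regions, and higher in those of SST+ neurons, and these 5 calls held under each alternative run.

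Mirg (chr12:109729764-109749460, plus strand, GRCm38), with 7292 exon bases, was the least abundant of the 8 and was read from few counts. It had 0 counts in 1 control IP of cerebral Gad2+ neurons and 1 HD IP of cerebral vGluT2+ neurons. In cerebral Gad2+ neurons its IP level was 0.7 ± 0.3 CPM (SD, n = 12) against 2.59 ± 0.548 in total RNA (n = 6), without overlap, a log2 ratio of -1.83 ± 0.36 (adjusted p = 0.000346). Cerebral vGluT2+ neurons gave -1.76 ± 0.51 (adjusted p = 0.00761, or 0.0769 with the mouse as a block) and cerebellar Gad2+ neurons -1.42 ± 0.25 (adjusted p = 7.59e-05). The Mirg ratio was 0.75 ± 0.22 in SST+ neurons (adjusted p = 0.00647, or 0.67 against total RNA of the Gad2 and vGluT2 lines), and it was not called in PV+ (0.14 ± 0.26, adjusted p = 0.645) or cerebellar vGluT2+ neurons (-0.15 ± 0.36, adjusted p = 0.728).

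Miat (chr5:112213228-112229395, minus strand, GRCm38), a neuronal RNA with 9293 exon bases, was lower in cerebral Gad2+ IPs and higher in PV+ IPs. In cerebral Gad2+ neurons it was at 6.12, 9.45 and 11.3 CPM (lowest, median, highest) in control and 4.53, 7.14 and 9.62 in HD IPs, and at 46.0, 46.6 and 58.8 in control and 40.6, 43.4 and 50.5 in HD total RNA. All IPs were far below all total RNA libraries, with a log2 ratio of -2.52 ± 0.14 (adjusted p = 2.64e-10), the most precise depletion among the 8 genes in this set. In PV+ neurons Miat was at 22.5, 30.9 and 40.0 CPM in control and 19.5, 20, 23.8, 30.4 and 37.7 in HD IPs, against 7.17, 9.42 and 21.5 in control and 2.98, 4.58 and 6.22 in HD total RNA. The groups overlapped through 1 control total RNA library, and the ratio was 1.89 ± 0.29 (adjusted p = 1.77e-05). With total RNA of the Gad2 and vGluT2 lines it was -0.33 (adjusted p = 0.154), with the sign turned, and the value of Miat in PV+ neurons over its 21 alternatives ran from -0.33 to 2.28.

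Miat had ratios of 1.67 ± 0.31 in SST+ (adjusted p = 0.000174, or 0.516 against those other lines), -1.61 ± 0.19 in cerebral vGluT2+ (adjusted p = 1.45e-06) and -1.24 ± 0.33 in cerebellar Gad2+ neurons (adjusted p = 0.00296). It was not called in cerebellar vGluT2+ neurons (-0.17 ± 0.48, adjusted p = 0.775). Cerebellar Miat levels were low, at 4.4 ± 1.76 (n = 6) and 3.79 ± 2.38 CPM (n = 8) in total RNA of the Gad2 and vGluT2 lines, while cerebral total RNA held 47.6 ± 6.4 in the Gad2 (n = 6), 29.8 ± 14.2 in the vGluT2 (n = 6), 14.2 ± 11.1 in the SST (n = 7) and 8.65 ± 6.69 in the PV line (n = 6).

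Snhg11 (chr2:158375638-158386145, plus strand, GRCm38) is a small nucleolar RNA host that the annotation types as protein-coding. Its levels in cerebral Gad2+ neurons were 27.6, 31.2 and 44.6 CPM (lowest, median, highest) in control and 17.1, 22.6 and 38.1 in HD IPs, against 92.8 to 125.3 in the 6 total RNA libraries of both genotypes. No library overlapped, and the log2 ratio was -1.83 ± 0.15 (adjusted p = 1.75e-08). In PV+ neurons Snhg11 was at 46.9 to 150.7 CPM in IPs and at 16.5 to 43.9 in total RNA, with a ratio of 1.78 ± 0.25 (adjusted p = 4.92e-06) that came to 0.15 (adjusted p = 0.515) against the other lines. For SST+ neurons the Snhg11 ratio was 1.85 ± 0.25 (adjusted p = 6.39e-06), and it was still called against the other lines at 0.68 (adjusted p = 0.00892). It was -0.85 ± 0.20 in cerebral vGluT2+ neurons (adjusted p = 0.00176) and was not called in cerebellar Gad2+ (-0.24 ± 0.22, adjusted p = 0.365) or vGluT2+ neurons (0.46 ± 0.62, adjusted p = 0.534).

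Peg13 differed from the other genes in its high and even level. In cerebral Gad2+ neurons IPs held 505.1, 610.8 and 655.2 CPM (lowest, median, highest) in controls and 585.8, 675.6 and 785.0 in HD mice, and total RNA held 415.0, 482.7 and 499.7 in controls and 416.2, 477.2 and 486.3 in HD mice. Every IP was above every total RNA library by a small margin, and the log2 ratio was 0.50 ± 0.09 (adjusted p = 0.000209). Peg13 was likewise higher in IPs of PV+ neurons (0.43 ± 0.07, adjusted p = 5.73e-05) and of cerebellar vGluT2+ neurons (0.44 ± 0.09, adjusted p = 0.000214, or 0.0645 with the mouse as a block). It was lower in IPs of cerebellar Gad2+ neurons, at 443.3 to 526.0 against 570.7 to 664.8 CPM, a ratio of -0.43 ± 0.06 (adjusted p = 6.56e-06). The ratio of Peg13 was not called in SST+ (0.15 ± 0.09, adjusted p = 0.155) or cerebral vGluT2+ neurons (0.16 ± 0.07, adjusted p = 0.0725), but was called in both against total RNA of the Gad2 and vGluT2 lines together (0.33 and 0.20, adjusted p = 0.000225 and 0.00325).

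**Figure D2:**
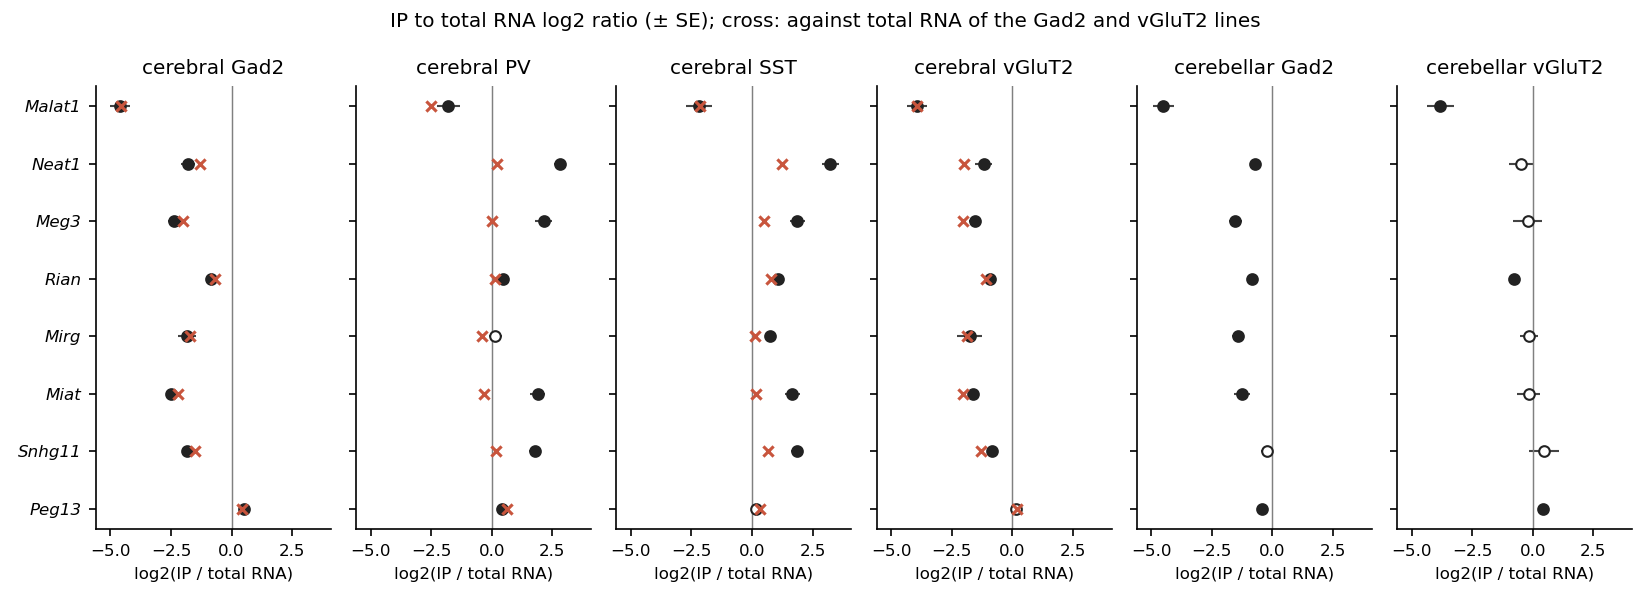
Log2 ratio of IP to total RNA of the same line for each gene in the 6 sets, with its SE as a bar; filled circles passed an adjusted p of 0.05 and open circles did not, and red crosses give the ratio against cerebral total RNA of the Gad2 and vGluT2 lines. Malat1 is left of 0 in every panel, Neat1 stands at 2.82 and 3.23 in PV and SST neurons, and the crosses of the PV panel lie near 0 for Neat1 (0.22) and Meg3 (0.02).

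Counted by set, 1 gene was higher and 7 were lower in the IP in cerebral Gad2+ neurons, where 25.0% of all 16596 genes tested were higher and 22.6% lower, and 1 and 6 against total RNA of all 4 cerebral lines. In PV+ neurons 6 were higher and 1 lower, where 35.0% of genes were called in each direction, and only 2 of the 8 were called against total RNA of the Gad2 and vGluT2 lines. In SST+ neurons 6 were higher and 1 lower, against 30.5% and 30.4% of all genes. In cerebral vGluT2+ neurons 0 were higher and 7 lower, against 22.6% and 26.6%. In cerebellar Gad2+ neurons 0 were higher and 7 lower, against 29.2% and 30.2%. In cerebellar vGluT2+ neurons 1 was higher and 2 lower, against 32.3% and 30.7%, and in control mice alone Peg13 was higher and Malat1, Neat1, Meg3 and Rian were lower. The median log2 ratio of all genes tested lay between -0.02 and 0.09 in the 6 sets, and that of the 1210 long noncoding genes tested in cerebral Gad2+ neurons was -0.05. For long noncoding genes the median was -0.04 in PV+, 0.02 in SST+, 0.08 in cerebral vGluT2+, -0.19 in cerebellar Gad2+ and -0.14 in cerebellar vGluT2+ neurons. IP and total RNA libraries did not overlap for 8, 3, 3, 2, 2 and 1 of the 8 genes in the order of sets given, where 19%, 37.2%, 23.1%, 20.2%, 24.4% and 21.5% of genes did not.

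The difference of the ratio between cell types was tested as an interaction. PV+ differed from cerebral Gad2+ neurons in 7 of the 8 genes, where 51.0% of all genes were called. The log2 differences were 4.54 ± 0.41 for Neat1 (adjusted p = 8.97e-11), 4.42 ± 0.45 for Meg3 (adjusted p = 1.45e-09), 4.35 ± 0.33 for Miat (adjusted p = 1.49e-12) and 2.68 ± 0.69 for Malat1 (adjusted p = 0.0017). Only Peg13 was not called (-0.10 ± 0.11, adjusted p = 0.447). SST+ differed from cerebral Gad2+ neurons in all 8, where 50.0% of genes were called, from 5.09 ± 0.47 for Neat1 (adjusted p = 6.51e-10) to -0.30 ± 0.12 for Peg13 (adjusted p = 0.0465, or 0.0846 with the mouse as a block). Both comparisons use the same Gad2 libraries, and both carry the differences in total RNA given above. The long minus short measure of coding genes, defined below with the IP levels, moved with these differences. Its zero is set separately for IPs and for total RNA. Lines can therefore be compared within a preparation, but IPs cannot be compared with total RNA. In the cerebral Gad2 line the measure was -0.996 to 0.03 in IPs and -0.35 to 1.069 in total RNA. It was 0.049 to 0.709 and -0.998 to 0.232 in the PV line, and -0.337 to 0.947 and -0.598 to 0.438 in the SST line. Its part in the ratios was not tested.

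Cerebral vGluT2+ and Gad2+ neurons were closer. Their ratios differed for Miat (0.97 ± 0.26, adjusted p = 0.00584, or 0.0862 with the mouse as a block) and Snhg11 (1.05 ± 0.26, adjusted p = 0.00263), where 18.4% of genes were called. In cerebellum vGluT2+ minus Gad2+ neurons differed for Peg13 (0.88 ± 0.11, adjusted p = 7.82e-09) and Mirg (1.28 ± 0.45, adjusted p = 0.0181, or 0.055 with the block), where 47.7% were called. Between regions of the Gad2 line, cerebellum had higher ratios of Neat1 (1.11 ± 0.38, adjusted p = 0.0302), Miat (1.32 ± 0.40, adjusted p = 0.0122) and Snhg11 (1.61 ± 0.28, adjusted p = 3.13e-05) and a lower ratio of Peg13 (-0.88 ± 0.10, adjusted p = 2.90e-08), where 24.5% were called. In the vGluT2 line only Miat was called (1.47 ± 0.52, adjusted p = 0.0392, or 0.106 with the block), where 21.8% of genes were. The ratio of Malat1 did not pass in any of these 4 comparisons.

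IPs were also compared directly, without total RNA, which was added after seeing the data. PV+ IPs held more of all 8 RNAs than cerebral Gad2+ IPs, where 65.9% of genes were called in either direction. Malat1 was higher by 2.04 ± 0.36 (log2 difference of the level, adjusted p = 2.83e-05), Meg3 by 1.99 ± 0.19 (adjusted p = 2.90e-09), Miat by 1.89 ± 0.14 (adjusted p = 2.55e-11) and Neat1 by 1.53 ± 0.18 (adjusted p = 8.69e-08), while Peg13 was higher by 0.18 ± 0.07 (adjusted p = 0.0239), a call lost without the filter on low counts (0.13, adjusted p = 0.16) and with protein-coding genes and the 8 alone (0.10, adjusted p = 0.159). SST+ IPs held more of 7, where 60.2% were called, with 2.53 ± 0.23 for Neat1 (adjusted p = 5.44e-09) and 2.46 ± 0.21 for Meg3 (adjusted p = 2.46e-09). Peg13 was the exception at -0.12 ± 0.07 (adjusted p = 0.162). Astrocyte and oligodendrocyte markers moved with this result. Of 10 astrocyte markers 9 were higher in PV+ and 10 in SST+ than in cerebral Gad2+ IPs, and of 10 oligodendrocyte markers 9 and 10. The oligodendrocyte markers summed to 422.5 to 1690.7 CPM in cerebral Gad2+ IPs, 1272.3 to 2668.3 in PV+ and 2482.9 to 4879.9 in SST+ IPs, against 3811.5 to 7006.9 in cerebral total RNA. Their part in the result was not tested, and in bulk IPs fewer cells of a type and less RNA per cell cannot be told apart.

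A long minus short measure of coding genes also moved with it. Each gene's log2 level in a library was first taken minus its mean over all libraries of that region and preparation. The measure is the median of this over long genes (the fifth with at least 7878 exon bases) minus that over short ones (at most 2620). It was -0.996 to 0.03 in cerebral Gad2+ IPs, 0.049 to 0.709 in PV+ and -0.337 to 0.947 in SST+ IPs, and 5 of the 8 noncoding genes are longer than 7878 bases. Its part was not tested either. Between cerebral vGluT2+ and Gad2+ IPs 0 of the 8 were called by edgeR, where 39.2% of genes were called and 7580 genes had an unadjusted p under 0.05, and DESeq2 called 2 of the 8 (Malat1 0.76 and Rian -0.27). For Rian edgeR gave the same -0.27 with an adjusted p of 0.05002.

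IP levels of several genes differed between regions. The same mice gave IPs of both regions, 12 of 12 in the Gad2 and 11 of 12 in the vGluT2 line, so each mouse was also taken as a block and left out in turn, which was added after seeing the data. Malat1 was higher in cerebellar than cerebral IPs of the Gad2 line by 1.87 ± 0.36 (adjusted p = 6.74e-05) and of the vGluT2 line by 1.64 ± 0.44 (adjusted p = 0.00194). Miat was lower in cerebellum by -2.08 ± 0.27 (adjusted p = 1.56e-07) and -1.67 ± 0.34 (adjusted p = 0.000119), and Rian by -0.64 ± 0.11 (adjusted p = 1.37e-05) and -0.51 ± 0.15 (adjusted p = 0.00447). Snhg11 was higher in the Gad2 line by 1.07 ± 0.15 (adjusted p = 6.32e-07). Peg13 went in opposite directions, at -0.41 ± 0.06 in the Gad2 line (adjusted p = 2.17e-06) and 0.60 ± 0.06 in the vGluT2 line (adjusted p = 4.92e-10). The share of all genes called was 63.8% in the Gad2 and 70.9% in the vGluT2 line. Mirg was also higher in cerebellum of the vGluT2 line (1.67 ± 0.49, adjusted p = 0.00371). These calls held with the mouse as a block and without any 1 mouse, and the block added Mirg in the Gad2 line (0.77, adjusted p = 0.0442) and Neat1 in the vGluT2 line (0.68, adjusted p = 0.0267).

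For Meg3 and Snhg11 in the vGluT2 line the call rested on a few mice. Meg3 was at 23.0, 56.8 and 100.1 CPM (lowest, median, highest) in cerebral and 52.1, 74.3 and 382.0 in cerebellar IPs, and Snhg11 at 18.0, 34.6 and 60 in cerebral and 23.1, 30.3 and 292.7 in cerebellar IPs. The groups overlapped, the cerebellar median of Snhg11 was the lower one, and HD replicate 5 held the highest value of both genes. Its cerebellar IP also held the highest sums of cerebral vGluT2 (122.5 CPM) and SST markers (19.5) among the HD IPs of this set. Control replicate 5 held more of both (239.7 and 67.5 CPM). The part of these markers was not tested. The log2 difference of the level was 0.95 ± 0.32 for Meg3 (adjusted p = 0.0109), but 0.70 with the mouse as a block (adjusted p = 0.0602) and 0.52 without the mouse of HD replicate 5 (adjusted p = 0.0574). It was 0.90 ± 0.39 for Snhg11 (adjusted p = 0.0441), but 0.36 with the block (adjusted p = 0.395) and 0.27 without that mouse (adjusted p = 0.395). The Snhg11 call was also lost with DESeq2 size factors (0.87, adjusted p = 0.0523) and without the mouse of control replicate 4 (0.69) or 5 (0.88) or of HD replicate 1 (0.92) or 4 (0.91), and its adjusted p over 19 alternatives ran from 0.0221 to 0.395.

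Within cerebellum, vGluT2+ IPs, which were enriched for granule cell markers (5361.4 to 11806.4 summed CPM against 478.2 to 1162.9 in Gad2+ IPs), had the highest Peg13 level of all preparations. Controls held 857.1, 893.4, 898.9, 907.1 and 1008.2 CPM and HD mice 850.8, 911.7 and 977.9 (lowest, median, highest), while Gad2+ IPs held 443.3, 457.8 and 469.7 in controls and 453.9, 474.8 and 526.0 in HD mice. No library overlapped, and the log2 difference of the level was 0.91 ± 0.05 (adjusted p = 4.11e-14). Mirg was also higher in vGluT2+ IPs (0.91 ± 0.32, adjusted p = 0.0145), where 67.0% of all genes were called, and the other 6 genes were not called.

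**Figure D3:**
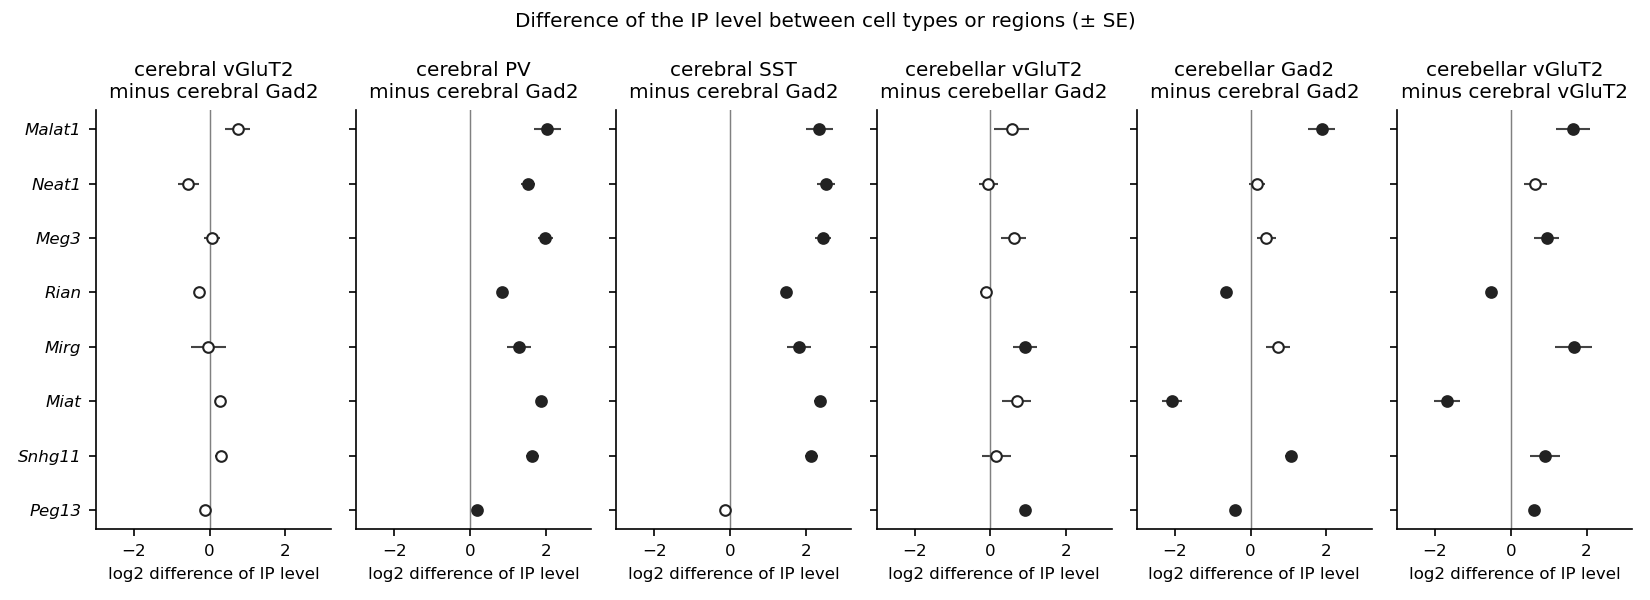
Log2 difference of the IP level of each gene between 2 cell types or regions, with its SE as a bar; filled circles passed an adjusted p of 0.05. In the PV and SST panels Malat1, Neat1, Meg3, Rian, Mirg, Miat and Snhg11 lie right of 0, and Peg13 is at 0.91 between the cerebellar cell types.

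None of the 8 RNAs passed the test for an HD effect in any of the 6 sets of IPs. With edgeR 0 of 8 were called in each set. The share of all genes called was 0.0373% in cerebral Gad2+, 0.0302% in PV+, 0% in SST+, 0% in cerebral vGluT2+, 0% in cerebellar Gad2+ and 1.99% in cerebellar vGluT2+ neurons. Genes at an unadjusted p under 0.05 numbered 1444, 712, 260, 1188, 382 and 2302 in this order, and DESeq2 called 96, 47, 3, 28, 27 and 720 genes, of which 0 were among the 8. Control and HD IPs overlapped for all 8 genes in all 6 sets, where 0.317% to 3.49% of genes did not overlap.

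In cerebellar vGluT2+ IPs the granule cell markers summed to 8312.0 to 11806.4 CPM in controls and 5361.4 to 7311.0 in HD mice and the pan-neuronal mRNAs to 24504 to 27379 and 17909 to 23720, without overlap, and their part in these comparisons was not tested.

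The differences with the highest absolute value did not pass the test. Malat1 in cerebral Gad2+ IPs, with the values given above, had a log2 fold change of HD over control of -1.17 ± 0.43 (adjusted p = 0.549), and its groups overlapped. Miat in cerebral vGluT2+ IPs was at 8.52, 12.8 and 15.8 CPM (lowest, median, highest) in controls and 5.51, 8.69 and 9.37 in HD mice, a change of -0.60 ± 0.18 (adjusted p = 0.678). Mirg in cerebellar vGluT2+ IPs, at 0.746, 1.17, 1.33, 1.75 and 3.38 CPM in controls and 0.986, 2.4 and 7.09 in HD mice (lowest, median, highest), gave 0.80 ± 0.51 (adjusted p = 0.485). Miat in cerebellar Gad2+ IPs, at 0.765, 1.3 and 2.65 CPM in controls and 0.845, 2.09 and 5.34 in HD mice (lowest, median, highest), gave 0.64 ± 0.44 (adjusted p = 1.0). Over the 6 sets the log2 fold change ran from -1.17 to 0.39 for Malat1, -0.60 to 0.64 for Miat, -0.53 to 0.80 for Mirg, -0.51 to 0.18 for Meg3, -0.35 to 0.02 for Neat1, -0.19 to 0.19 for Rian and -0.44 to 0.21 for Snhg11. Peg13, the most precisely measured, lay between 0.01 and 0.17 in the 6 sets, with SEs of 0.08 to 0.14.

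Total RNA was compared next. In cerebrum, with the Gad2, PV and vGluT2 lines, 0 of the 8 were called, where 0.185% of all genes were, 1204 genes had an unadjusted p under 0.05 and DESeq2 called 121 genes and 0 of the 8. The largest differences were -0.85 ± 0.27 for Miat (adjusted p = 0.349) and -0.74 ± 0.31 for Neat1 (adjusted p = 0.613), and the other 6 lay between -0.55 for Meg3 and 0.04 for Rian. Control and HD libraries of the vGluT2 line did not overlap for these 2 genes, with Neat1 at 12.0, 20.3 and 23.6 CPM in controls against 6.85, 7.77 and 11.1 in HD mice, and Miat at 32.5, 34.3 and 51.1 against 9.06, 20.3 and 31.4, where 12.4% of genes did not overlap. In the PV line Miat did not overlap either, with the values given above, where 7.34% of genes did not.

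In cerebellar total RNA 3 of the 8 were called, where 22.9% of all genes were. Neat1 was lower in HD by -1.79 ± 0.53 (adjusted p = 0.0349) and Meg3 by -1.84 ± 0.58 (adjusted p = 0.0397), and Peg13 was higher by 0.35 ± 0.10 (adjusted p = 0.0328). Snhg11 did not pass (-1.16 ± 0.51, adjusted p = 0.1). In the vGluT2 line Neat1 was at 14.1, 33.6, 40.6 and 52.9 CPM in controls and 2.18, 3.44, 4.25 and 8.8 in HD mice, Meg3 at 208.8, 345.7, 378.1 and 503.1 against 23.0, 28.6, 35.5 and 74.6, and Peg13 at 491.9, 507.3, 548.6 and 561.8 against 774.2, 784.5, 822.6 and 851.1. For these 3 genes no control library overlapped with an HD library, but 45.7% of all genes did not overlap in this comparison.

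In the Gad2 line alone no gene was called. Its cerebellar total RNA held Neat1 at 15.0, 16.1 and 19.1 CPM in controls and 9.12, 15.3 and 20.1 in HD mice, Meg3 at 187.7, 195.6 and 210.5 against 118.8, 244.8 and 260.6, and Peg13 at 570.7, 620.2 and 632.3 against 603.8, 618.0 and 664.8. The groups overlapped for all 3. Fitted alone, an alternative chosen after seeing the data, the Gad2 line gave -0.17 for Neat1, 0.08 for Meg3 and 0.06 for Peg13 with 0 genes called by edgeR and 370 at an unadjusted p under 0.05, and the vGluT2 line gave -2.97 (adjusted p = 0.00109), -3.20 (adjusted p = 0.000346) and 0.55 (adjusted p = 0.00206) with 8045 genes called, Miat (-1.44, adjusted p = 0.011) and Snhg11 (-2.23, adjusted p = 0.00388) among them. Over 21 alternatives the adjusted p ran from 0.00109 to 1 for Neat1 and from 0.000346 to 1 for Meg3. The count of these genes called was 0 with a replicate block and 0 when any 1 library of the vGluT2 line, or HD replicate 2 of the Gad2 line, was left out, and it was 1 without control replicate 2 of the Gad2 line. The difference between the lines was not tested.

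The control and HD libraries of that line also stood apart in other respects. TMM factors were 1.028 to 1.098 in control and 0.896 to 0.946 in HD total RNA, the glycolytic mRNA Gapdh was at 1686.5 to 2207.1 and 3969.8 to 5592.6 CPM, and the long minus short measure was 0.237 to 0.593 in controls and -0.75 to -0.314 in HD mice. Marker sums of microglia (140.9 to 166.7 against 242.4 to 263.5 CPM), PV neurons (1405.9 to 1810.4 against 1944.8 to 2593.4), Purkinje cells (2350.2 to 2802.9 against 1467.8 to 2164.5) and pan-neuronal mRNAs (11466 to 12893 against 13514 to 16231) did not overlap between control and HD libraries, nor did that of the other long noncoding RNAs (801.8 to 1251.7 against 279.9 to 659.6). Without overlap, sums were higher in HD for the coding genes at and beside the Dlk1-Dio3 region (252.7 to 278.8 against 291.2 to 356.2 CPM) and the neighbours of Peg13 (232.0 to 270.8 against 286.9 to 294.3). The same held for the neighbours of Malat1 and Neat1 (138.9 to 184.7 against 218.2 to 282.7) and for other imprinted genes (1718.4 to 1994.2 against 2412.0 to 2705.6). Sums of GABAergic, SST, cerebral vGluT2, granule cell, astrocyte, oligodendrocyte and endothelial markers overlapped. The part of these in the result was not tested. In IPs from the same line and region the groups overlapped. Meg3 was at 56.9, 61.0, 82.5, 131.6 and 211.8 CPM in controls and 52.1, 66.1 and 382.0 in HD mice (lowest, median, highest), and Neat1 at 6.42, 7.88, 10.2, 13.6 and 14.1 against 4.03, 6.91 and 18.3.

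**Figure D4:**
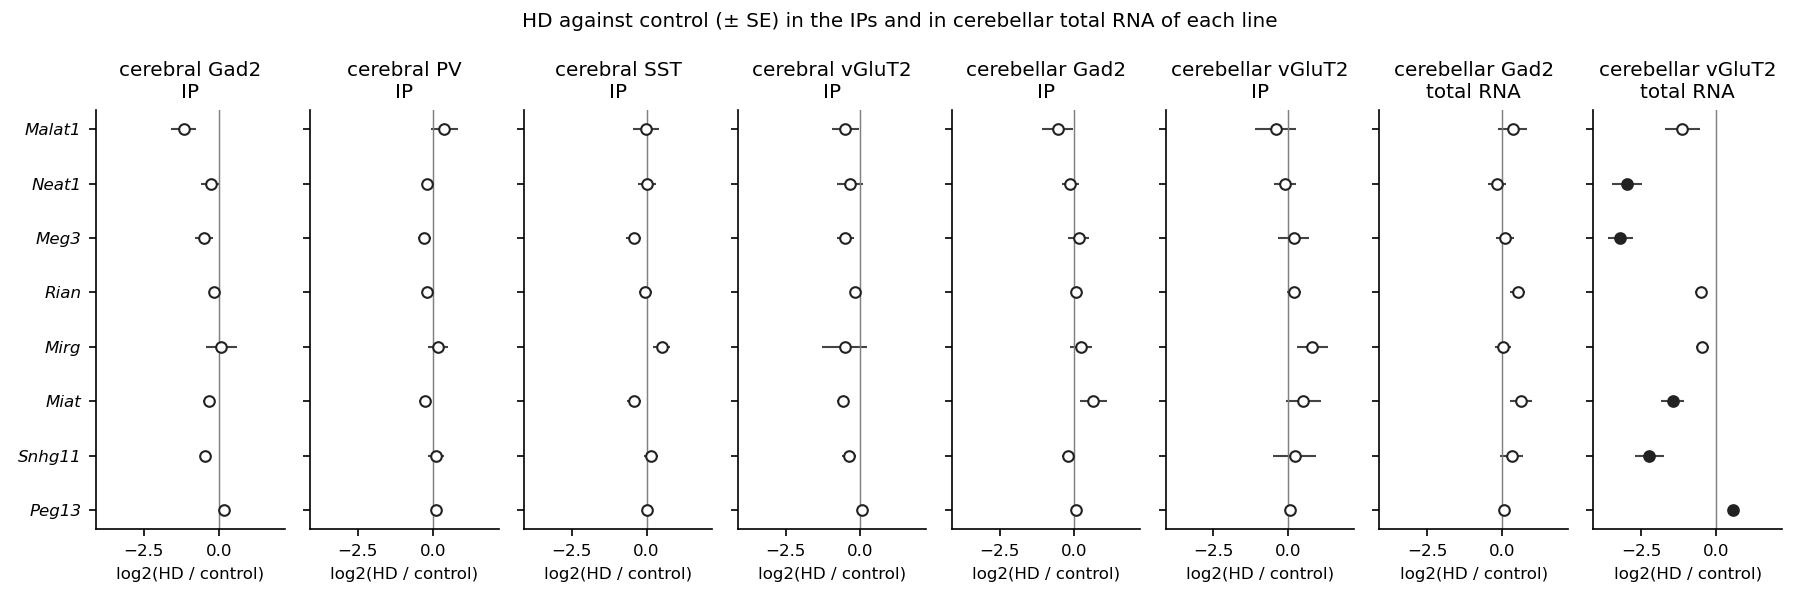
Log2 fold change of HD over control for each gene, with its SE as a bar, in the 6 sets of IPs and in cerebellar total RNA of each line; filled circles passed an adjusted p of 0.05. Filled circles appear in cerebellar total RNA of the vGluT2 line, where Neat1 is at -2.97, Meg3 at -3.20 and Peg13 at 0.55.

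The HD effect on the ratio was tested as the interaction of genotype and preparation. In cerebellar vGluT2+ neurons it was called for Neat1 (2.88 ± 0.64, adjusted p = 0.00255), Meg3 (3.41 ± 0.77, adjusted p = 0.00276, or 0.0603 with the mouse as a block) and Peg13 (-0.48 ± 0.13, adjusted p = 0.0102, or 0.0708 with the block), where 25.7% of all genes were called. In IPs of that set the HD effects on Meg3 and Neat1 were 0.18 ± 0.52 and -0.12 ± 0.37. In cerebral Gad2+, PV+, SST+ and vGluT2+ and in cerebellar Gad2+ neurons 0 of the 8 and 0% of all genes were called by edgeR. Genes at an unadjusted p under 0.05 numbered 71, 340, 88, 2579 and 145 in this order, and DESeq2 called 1, 0, 1, 1 and 9 genes and 0 of the 8.

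Several of the 8 genes varied together between total RNA libraries, and 12 of 28 pairs passed for Pearson's r in cerebrum and 10 of 28 in cerebellum. The share of pairs of other genes that would pass was not determined, so these counts do not set the 8 genes apart. A negative r was found for Rian and Mirg in cerebrum (-0.495, adjusted p = 0.0397) and, in cerebellum, for Peg13 with Rian (-0.626, adjusted p = 0.0469) and with Miat (-0.684, adjusted p = 0.0268), and r was positive for the others. For Rian and Peg13 in cerebellum Spearman's rho did not pass (-0.574, adjusted p = 0.098). Their r was -0.395 without the 2 libraries farthest from the median of Rian. For Meg3 and Neat1, after centring within line and genotype, Pearson's r was 0.927 and Spearman's rho 0.874 over 25 cerebral libraries, and 0.923 and 0.855 over 14 cerebellar ones, with an adjusted p of 0.00014 for each r over 56 permutation tests. Each rests on raw p = 1e-05, the smallest the 100000 permutations can give. The permutations shuffled centred values over all libraries of a region and did not allow for the group means removed. The p-values of these correlations therefore tend to be too small, which matters most for those near the threshold. Without the 2 libraries farthest from the median of the first gene, r was 0.88 and 0.881. For Miat and Snhg11 r was 0.922 in cerebrum and 0.777 in cerebellum, for Meg3 and Snhg11 0.788 and 0.862, for Meg3 and Miat 0.826 and 0.678, for Neat1 and Miat 0.677 and 0.871 and for Neat1 and Snhg11 0.657 and 0.913, with adjusted p from 0.00014 to 0.0279. Some pairs that passed for r did not pass for Spearman's rho. In cerebrum these were Neat1 with Miat (adjusted p = 0.0611) and Malat1 with Miat (adjusted p = 0.336). In cerebellum, beside Rian with Peg13, they were Meg3 with Miat (adjusted p = 0.106), Rian with Miat (adjusted p = 0.106) and Rian with Snhg11 (adjusted p = 0.0677). Without the 2 farthest libraries the cerebral r of Neat1 came to 0.434 with Miat and 0.401 with Snhg11. Malat1 also varied with Meg3 (r = 0.725, adjusted p = 0.00028) and Neat1 (r = 0.699, adjusted p = 0.00084) in cerebrum, and Neat1 with Rian (r = 0.531, adjusted p = 0.0262), but these pairs did not pass in cerebellum (r = 0.448, 0.356 and 0.484). Meg3 and Rian, which are neighbours, had r = 0.421 (adjusted p = 0.0773) and 0.436 (adjusted p = 0.193), and Meg3 and Mirg 0.003 and 0.069. The rho of Meg3 and Rian passed in cerebrum (0.49, adjusted p = 0.0456) but not in cerebellum (0.358, adjusted p = 0.337). Without the 2 farthest libraries the r of Meg3 and Rian was 0.572 and 0.545. The long minus short measure varied between these libraries too, from -0.35 to 1.069 in the cerebral Gad2 line, where the library with the most Meg3 in each genotype had the highest measure (0.989 and 1.069), from -0.998 to 0.232 in the PV, -0.598 to 0.438 in the SST and -0.536 to 0.765 in the vGluT2 line. Its part in the correlations was not tested. This comparison was added after seeing the data.

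**Figure D5:**
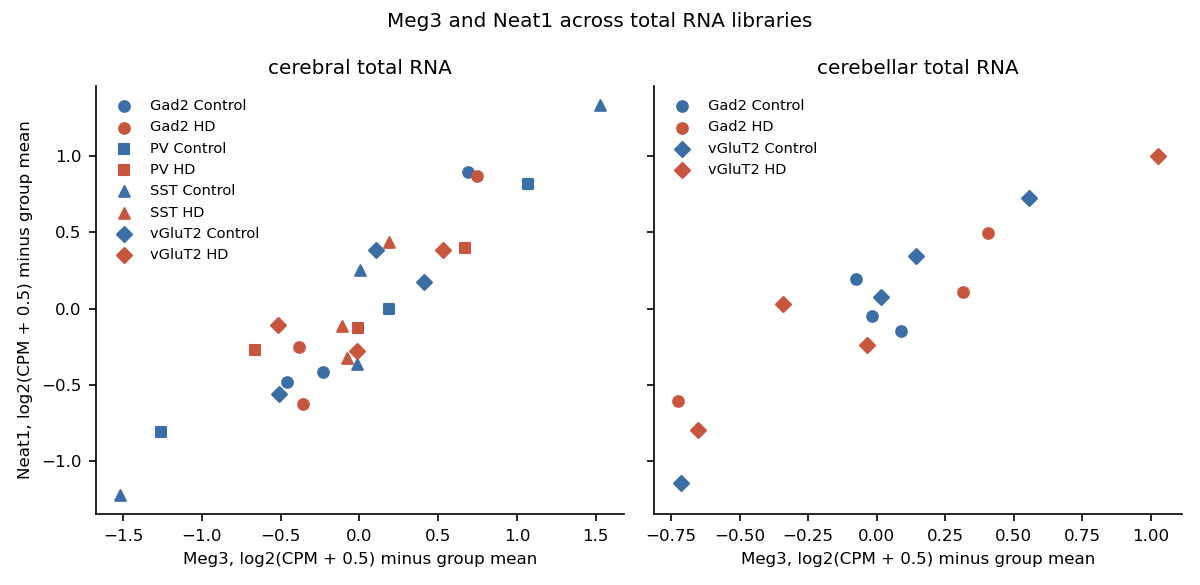
Neat1 against Meg3 in cerebral (left) and cerebellar (right) total RNA libraries, each as log2(CPM + 0.5) minus the mean of its line and genotype; shapes are lines and colours genotypes. The points follow 1 line in both regions, with r of 0.927 and 0.923.

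In IPs the 3 Dlk1-Dio3 transcripts were compared in 18 permutation tests (3 pairs in 6 sets). Here too the values were shuffled after centring within genotype, so the p-values tend to be too small. Of these, Meg3 and Rian (r = 0.798, rho = 0.8) and Meg3 and Mirg (r = 0.806, rho = 0.464) passed in cerebellar vGluT2+ neurons (n = 11), both with an adjusted p of 0.0277. Without the 2 libraries farthest from the median r was 0.612 and 0.313, so the second rests on those libraries. Without centring within genotype neither pair passed (r = 0.779 and 0.739, adjusted p = 0.0589 and 0.0877). In the remaining 5 sets no pair passed for r, and with rho no pair passed in any set.

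Across the 12 preparations of control mice the genes with the most similar mean log2 CPM were found among 14374 genes, as a description without a test, since preparations share mice. Neat1 was nearest to Snhg11 (r = 0.942), Meg3 (0.931) and Firre (0.92), and Snhg11 to Neat1, Firre (0.913) and Meg3 (0.892). Firre is a nuclear noncoding RNA of the X chromosome. Malat1 was nearest to Cobll1 (0.981), Tnfrsf10b (0.98) and Kcne2 (0.975), and Meg3 to C78859 (0.965), Myo9b (0.938) and Cdh19 (0.936). Rian was nearest to Gm973 (0.966), Akap13 (0.957) and P3h2 (0.954), Mirg to 1700047M11Rik (0.96), Hif3a (0.949) and Ptprb (0.934), Miat to Mov10 (0.942), Kif6 (0.94) and Dlec1 (0.937), and Peg13 to 6430548M08Rik (0.94), Sdf4 (0.913) and Adnp2 (0.904). Malat1 and Neat1, which lie close together on chromosome 19, had r = 0.25.

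Other long noncoding RNAs gave a background for the 8. Of 16 listed, 13 were tested, and 1 was higher and 3 lower in IPs of cerebral Gad2+ neurons (median log2 ratio -0.23 against 0.09 over all genes), 7 and 4 in PV+ (0.32), 8 and 2 in SST+ (0.55), 3 and 5 in cerebral vGluT2+ (-0.16), 2 and 7 in cerebellar Gad2+ (-0.66) and 3 and 6 in cerebellar vGluT2+ neurons (-0.56). Of all genes 25.0%, 35.0%, 30.5%, 22.6%, 29.2% and 32.3% were called higher and 22.6%, 35.0%, 30.4%, 26.6%, 30.2% and 30.7% lower in these sets, with medians between -0.02 and 0.09. Ftx, an activator of Xist, had a ratio of 2.37 in PV+ and 2.46 in SST+ neurons, and Kcnq1ot1, an imprinted silencing RNA, 1.61 and 1.59, all called. Dlx6os1, which is made in forebrain interneurons, was higher in cerebral Gad2+ IPs by 2.08 and lower in cerebral vGluT2+ IPs by -3.67.

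Of 11 other small nucleolar RNA hosts, 1 was higher and 5 lower in IPs of cerebral Gad2+ neurons, 1 and 5 in PV+, 3 and 4 in SST+, 0 and 6 in cerebral vGluT2+, 0 and 6 in cerebellar Gad2+ and 2 and 4 in cerebellar vGluT2+ neurons, where 22.6% to 35.0% of all genes were called in either direction. Snhg18, with ratios of -2.0 to -3.40, and Snhg8, with -1.43 to -2.48, were lower in all 6 sets. Snhg11 was called higher in PV+ and SST+ neurons, in PV+ not against total RNA of the Gad2 and vGluT2 lines (0.15, adjusted p = 0.515), and its difference from the other hosts was not tested.

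The mRNAs of 11 paraspeckle and speckle proteins, the partners of Neat1 and Malat1, were higher in IPs in 9, 6, 4, 8, 6 and 11 cases and lower in 0, 3, 3, 0, 0 and 0, in the order of sets given, against 22.6% to 35.0% of all genes in either direction. Tardbp was higher in all 6 (0.68 to 1.39), and Pspc1 led the list in cerebellar Gad2+ neurons (1.35). Among 4 neighbours of Malat1 and Neat1, 0, 1, 0, 0, 0 and 1 were higher and 2, 2, 3, 4, 1 and 2 lower, and Frmd8 was lower in all 6 sets (-1.40 to -2.70). Of 4 neighbours of Peg13, 1, 2, 2, 0, 0 and 1 were higher and 1, 0, 1, 1, 1 and 0 lower, and these few neighbours are set against the same shares of all genes. Its host gene Trappc9 was called in cerebral vGluT2+ neurons only (-0.53, adjusted p = 0.000374), and reads of its unspliced RNA over the Peg13 exon cannot be told apart from Peg13.

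Of the coding genes at and beside the Dlk1-Dio3 region, 8 were tested in cerebrum and 6 in cerebellum, and 2, 0, 0, 1, 3 and 0 were higher and 1, 4, 3, 4, 2 and 2 lower, against 22.6% to 35.0% of all genes in either direction. Dlk1, a paternally expressed membrane ligand, had a ratio of -2.73 and Dio3, a thyroid hormone deiodinase, of -1.63 in PV+ neurons, both against total RNA of the PV line.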

How the data were processed

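RNA-seq of RiboTag IPs (67 libraries) and total RNA (39 libraries) from 45 mice, as identified by shared sample codes, was analysed. The deposited values are estimated counts per gene, which the authors made by running nf-core/rnaseq 3.0 (STAR, Salmon) on GRCm38.p6 per the labels and the study's methods (STAR and Salmon versions and annotation release not given in the sources used here), from stranded poly(A) libraries sequenced as 100 bp pairs (3 repeated libraries at 150 bp). The 4.37% of values that were not whole by over 0.01 were rounded, and 92 spike-ins (up to 4.45% of a library) were left out. Gene positions and lengths are those of GENCODE M21 and microRNAs those of RefSeq. The members and gene lists were chosen with earlier results of these data known.

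Genes with a mean count over 10 were fitted with edgeR 4.0.16 (quasi-likelihood test, TMM, Benjamini-Hochberg adjustment over all genes tested, threshold 0.05) in R 4.3.3. IP was compared with total RNA in each set with genotype as a covariate, sets were compared through the interaction, and HD with control in IPs and in total RNA. The fits were tested on simulated data. With DESeq2 1.42.0, other scaling, no filter and, for the ratio, control mice alone, the fits were repeated. Each library was left out in turn from the comparisons of HD with control. Each mouse was left out from the ratio, the HD effect on it and the IP levels between regions. Differences of the ratio between sets, and of IP levels between cell types, were not repeated in this way. IP and total RNA of a mouse share an animal, which pairs them (deviations correlated over 0.1 in 21 of 37 mice), so mouse was tried as a block, also between regions. No label says that the replicate number joins HD and control mice, and the number was tried as a block. The naming rule takes all 8 genes in every comparison (those not given singly stand in a count or range), at most 4 genes of each list per comparison by the largest absolute log2 value, and the 3 genes of most similar pattern for each. Counting error and precision follow from 21905221 to 107753586 counts a library. Among 201 pairs of libraries within groups none was a duplicate (lowest chi-square per degree of freedom 8.28).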

Additional observations from a re-analysis of the deposited data

Results flagged for a closer look

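Of 120 gene and group pairs in 15 groups of 4 to 6 libraries, 6 held a library far from the others by Dixon's test at the 95% level, where chance gives about 1 in 20. Peg13 was at 505.1 CPM in control replicate 5 of the cerebral Gad2+ IPs, the lowest of its group, with the next at 600.2. Control replicate 3 of the cerebellar Gad2+ IPs was highest for Mirg at 2.31 (next 0.907) and for Snhg11 at 111.3 (next 59.5). HD replicate 5 of the cerebellar vGluT2+ IPs was highest for Meg3 at 382.0 (next 104.6) and for Snhg11 at 292.7 (next 40.3). Rian was lowest in control replicate 3 of cerebellar vGluT2-line total RNA at 129.9 (next 216.6).

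By the interaction test the IP to total RNA ratio differed between cell types or regions for these genes. Cerebral vGluT2+ minus Gad2+ neurons gave log2 differences of 0.975 for Miat and 1.049 for Snhg11. PV+ minus cerebral Gad2+ neurons gave 2.682 for Malat1, 4.538 for Neat1, 4.42 for Meg3, 1.254 for Rian, 1.946 for Mirg, 4.347 for Miat and 3.565 for Snhg11. SST+ minus cerebral Gad2+ neurons gave 2.456 for Malat1, 5.089 for Neat1, 4.29 for Meg3, 1.965 for Rian, 2.654 for Mirg, 4.222 for Miat, 3.739 for Snhg11 and -0.297 for Peg13. Cerebellar vGluT2+ minus Gad2+ neurons gave 1.283 for Mirg and 0.875 for Peg13. Cerebellum minus cerebrum gave 1.109 for Neat1, 1.315 for Miat, 1.613 for Snhg11 and -0.876 for Peg13 in the Gad2 line and 1.468 for Miat in the vGluT2 line. The HD effect differed between IP and total RNA of cerebellar vGluT2+ neurons by 2.878 for Neat1, 3.408 for Meg3 and -0.479 for Peg13.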

How the results depend on the processing

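Of 3816 values of the 8 genes under alternatives, 3708 kept their side of the threshold and their direction or were uncalled in both, 75 lost and 31 gained a call, and 2 reversed a called value. In PV+ neurons the Miat ratio turned to -0.33, and 2 genes were called, against total RNA of the Gad2 and vGluT2 lines. In cerebellar total RNA the HD change of Meg3 was 0.0812 in the Gad2 line alone. There 0 genes were called in the Gad2 line, 5 in the vGluT2 line and 0 with the replicate number as a block, and 0 to 4 when 1 library was left out. In cerebellar vGluT2+ neurons 5 ratios were called in control mice only. With the mouse as a replicate block, the differences of the ratio were called for 1 gene between cerebral vGluT2+ and Gad2+ neurons, 1 between the cerebellar cell types and 0 between regions of the vGluT2 line (2 by DESeq2, 0 without the filter), and the HD effect on the ratio of cerebellar vGluT2+ neurons for 1. Between cerebral vGluT2+ and Gad2+ IPs 2 levels were called by DESeq2 and 2 without TMM. Without centring within genotype 0 pairs of Dlk1-Dio3 transcripts in IPs were called. The causes were not tested. HD and control libraries with the same number deviated together (r over 0.1) in 15 of 29 IP and 10 of 19 total RNA pairs, and in 3 of 3 cerebral total RNA pairs of the Gad2 line. Mirg, at under 3 CPM in most IPs, is limited by depth.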
